A study of Homo sapiens with 6 samples.

Results

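TET2 ChIP-seq peaks were compared between THP-1 cells kept for 48 h in OPA1 and THP-1 cells kept for 48 h in DMSO. All peaks on chromosomes 1 to 22 and X of both TET2 lists were taken, which gave 882 peaks in DMSO and 1683 peaks in OPA1. These 2565 peaks were part of 3579 peaks on those chromosomes in the 4 ChIP lists of the series. THP-1 is an established human cell line derived from acute monocytic leukaemia and grows without added cytokines. DMSO is the solvent and serves as the control, and OPA1 is the submitters' name for the compound (there is also a mitochondrial gene of that symbol). Each TET2 library was made with an antibody against TET2 from sonicated chromatin, and its peaks were called against an input library of the same treatment. There was 1 TET2 library per treatment in 1 cell line, so treatment and library cannot be told apart, no p-value is given, and intervals cover counting error only. Peak lists hold no marker levels, so the cell line label was not checked. The other libraries of the series were an EGR1 ChIP for each treatment, whose peaks are used at the end.

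TET2 is an iron- and 2-oxoglutarate-dependent dioxygenase that oxidises 5-methylcytosine to 5-hydroxymethylcytosine and further products, a step on the way to removal of the methyl mark. It lacks the CXXC zinc finger that lets related proteins bind unmethylated CG dinucleotides directly, and it is brought to DNA by partners such as transcription factors and CXXC-domain proteins. In blood cells it takes part in differentiation at enhancers and promoters, and loss-of-function mutations in it are common in myeloid neoplasms. A ChIP peak shows where the antibody enriched DNA and does not by itself show a change in methylation or in transcription.

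Most TET2 peaks of either list lay far from gene starts, and the few at promoters fell on both CG-rich and CG-poor sequence. The 300-base promoter windows of 5 genes are printed because they span that range. They are RefSeq sequences on GRCh38.p14, from 250 bases before to 50 bases after the annotated start and read 5′ to 3′ on the gene's strand, with capitals marking CG, the dinucleotide that is methylated in human DNA. These genes were picked with the values known. PGK1 (chrX:78103998-78104297, plus strand) encodes the glycolytic enzyme phosphoglycerate kinase and had the peak with the most tags of the DMSO list. CXXC5 (chr5:139647049-139647348, plus strand) encodes a CXXC zinc-finger protein of the kind that can recruit TET2. CD36 (chr7:80638392-80638691, plus strand) encodes a scavenger receptor of monocytes. TREM1 (chr6:41286633-41286932, minus strand) encodes an activating myeloid receptor. MEF2C (chr5:88827143-88827442, minus strand) encodes a transcription factor of myeloid and muscle cells.
PGK1: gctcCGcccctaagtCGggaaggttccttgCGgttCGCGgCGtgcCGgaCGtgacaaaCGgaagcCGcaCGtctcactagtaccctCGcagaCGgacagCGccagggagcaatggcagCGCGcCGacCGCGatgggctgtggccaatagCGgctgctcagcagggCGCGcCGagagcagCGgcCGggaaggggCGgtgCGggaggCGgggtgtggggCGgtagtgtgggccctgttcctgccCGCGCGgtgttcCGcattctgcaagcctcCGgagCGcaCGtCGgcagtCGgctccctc
CXXC5: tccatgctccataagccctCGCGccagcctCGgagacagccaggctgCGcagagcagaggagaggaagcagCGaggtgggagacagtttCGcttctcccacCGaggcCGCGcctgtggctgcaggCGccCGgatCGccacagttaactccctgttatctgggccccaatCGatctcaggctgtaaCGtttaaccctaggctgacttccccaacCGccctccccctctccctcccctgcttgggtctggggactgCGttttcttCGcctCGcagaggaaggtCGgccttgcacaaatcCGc
CD36: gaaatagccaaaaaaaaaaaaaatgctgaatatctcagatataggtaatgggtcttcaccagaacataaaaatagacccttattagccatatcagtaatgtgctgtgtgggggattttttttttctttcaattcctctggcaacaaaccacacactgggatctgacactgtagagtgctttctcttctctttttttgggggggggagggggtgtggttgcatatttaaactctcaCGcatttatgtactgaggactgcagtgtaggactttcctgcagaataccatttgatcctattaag
TREM1: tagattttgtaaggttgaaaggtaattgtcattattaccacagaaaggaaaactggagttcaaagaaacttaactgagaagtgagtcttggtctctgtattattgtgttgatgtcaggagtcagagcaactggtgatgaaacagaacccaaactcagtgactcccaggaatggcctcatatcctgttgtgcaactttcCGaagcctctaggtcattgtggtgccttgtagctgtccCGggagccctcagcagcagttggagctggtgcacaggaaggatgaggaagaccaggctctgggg
MEF2C: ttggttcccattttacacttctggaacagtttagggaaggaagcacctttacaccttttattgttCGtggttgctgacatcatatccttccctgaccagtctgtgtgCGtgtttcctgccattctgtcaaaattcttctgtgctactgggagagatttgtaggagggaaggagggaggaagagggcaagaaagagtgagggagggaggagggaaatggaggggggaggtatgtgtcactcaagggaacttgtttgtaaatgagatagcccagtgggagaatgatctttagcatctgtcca

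The PGK1 window held 38 CG dinucleotides and lay wholly inside a TET2 peak in both treatments, with 100 tags in DMSO and 73 tags in OPA1. The CXXC5 window held 20 CG dinucleotides and met an OPA1 peak of 12 tags, with no DMSO peak. The CD36 window held 1 CG and met an OPA1 peak of 16 tags, and the TREM1 window held 2 CG and met an OPA1 peak of 14 tags. Neither had a DMSO peak. The MEF2C window, with 2 CG, met a peak of 8 tags in DMSO and of 14 tags in OPA1. The OPA1 peaks of CD36 and MEF2C lay inside these genes, 36424 and 76752 bp from a gene end. Their windows are thus at internal starts. Promoters on CG-rich and on CG-poor sequence were thus both found among the peaks absent from the DMSO list.

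Windows of this kind were listed for 15812 protein-coding genes, none of them on chromosome 8. A peak overlapped the window of 22 genes in DMSO (19 peaks) and of 28 genes in OPA1 (27 peaks). Only PGK1, MEF2C and IPCEF1 were overlapped in both treatments. Over all genes, taking the first listed window of each, the median window held 22 CG dinucleotides. The median was 22 over the genes overlapped in DMSO and 16 over the genes overlapped in OPA1. Overlapped windows included internal starts, as at CD36 and MEF2C, so they are not strictly comparable with the first windows. Windows with at most 5 CG made up 19.5% of these first windows, 5 of 22 (22.7%) in DMSO and 9 of 28 (32.1%) in OPA1. These numbers are too small to separate the treatments. The OPA1 promoters also included PMAIP1, encoding the pro-apoptotic BH3-only protein NOXA, with 10 tags on a window of 42 CG. CCND3, encoding cyclin D3, had 24 tags on a window of 3 CG. The DMSO promoters included CHUK, encoding the IKK-alpha kinase, with 10 tags on a window of 22 CG.

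More peaks were called in OPA1 at almost the same depth. The DMSO library had 19782924 tags after duplicate filtering and the OPA1 library 19779007, against 20075020 and 20038155 in their inputs. The OPA1 list was 1.91 times as long and its peaks were bigger: the median peak held 9 tags in DMSO (95% interval of the median 9 to 9) and 12 tags in OPA1 (11 to 12). Among peaks with a false discovery rate of at most 5% in the authors' lists, 169 and 1352 peaks, the ratio was 8 and the median tags stood in the other order, 14 in DMSO and 13 in OPA1. Here a tag is a sequenced read kept by the peak caller. Peaks were also wider, with a median length of 188 bp in DMSO (186 to 190) and 251 bp in OPA1 (248 to 256). All DMSO peaks together held 9675 tags, or 0.0489% of the library, on 180784 bp. All OPA1 peaks together held 23652 tags, or 0.120% of the library, on 461898 bp. The mean tag density over the covered bases was close, at 5.35 tags per 100 bp in DMSO and 5.12 in OPA1.

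The smallest peak had 8 tags in both lists, and the surplus in OPA1 was not a surplus of such peaks. Exactly 8 tags were found in 327 DMSO peaks (37.1%) and in 192 OPA1 peaks (11.4%). At 10 tags or more there were 389 DMSO and 1242 OPA1 peaks, a ratio of 3.19. At 15 tags or more there were 112 and 533, a ratio of 4.76, and at 20 tags or more 39 and 250, a ratio of 6.41. The ratio was lower again among the few biggest peaks, with 12 and 55 peaks of at least 30 tags (4.58) and 7 and 19 of at least 40 (2.71). OPA1 peaks were longer also at the same tag count: with 8 tags the median length was 172 bp in DMSO against 185 bp in OPA1, and with 16 to 20 tags it was 277 bp against 330.5 bp. Above 30 tags the order was the other way, 604.5 bp for 12 DMSO peaks and 512 bp for 49 OPA1 peaks. The caller's estimate of the fragment length was shorter for DMSO, 64 bp, than for OPA1, 76 bp, and its part in the lengths and counts was not tested. Fold enrichment over the input background, the authors' own value per peak, had a median of 12.01 in DMSO and 11.1 in OPA1.

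**Figure D1:**
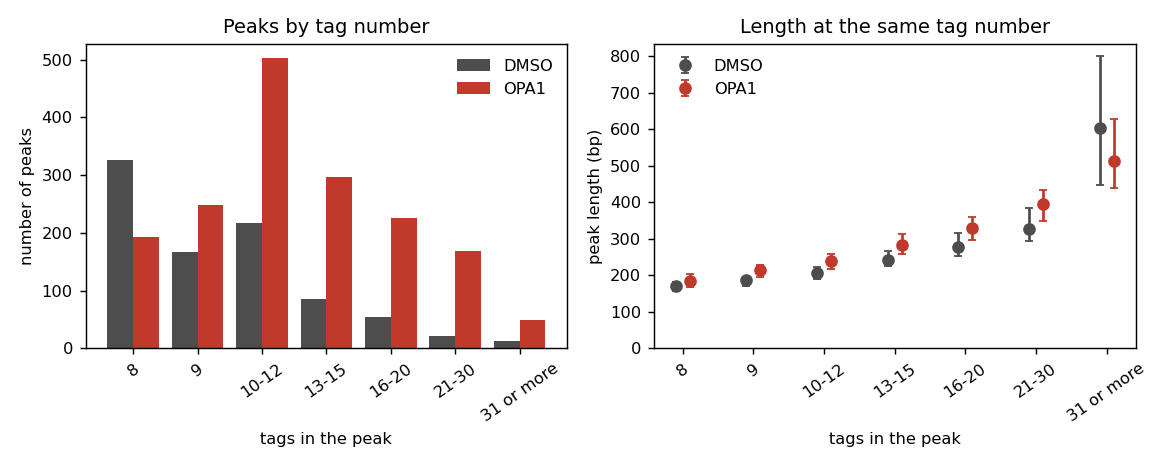
Number of TET2 peaks by tags in the peak (bars) and length in bp at the same tags (points are medians, error bars the lower and upper quartiles) in DMSO and OPA1. DMSO had more peaks only with exactly 8 tags, 327 against 192, and its median length was the higher only above 30 tags.

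Few places were called in both treatments. A shared peak, here 1 overlapping at least 1 bp with a peak of the other list, was found 170 times, which is 19.3% of the DMSO list (95% Wilson interval 16.8 to 22.01) and 10.1% of the OPA1 list (8.75 to 11.6). The overlapped share grew with peak size. It was 4.89% of DMSO peaks with 8 tags, 42.4% of those with 13 to 15 tags and 69.7% of those with 21 or more. Among OPA1 peaks it was 1.56%, 8.11% and 35.3% for the same tag counts. Among the 49 OPA1 peaks above 30 tags, 59.2% had a DMSO partner.

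At the shared places the OPA1 peak nearly always held more tags. It had more in 151 of 170 pairs, the same number in 7 and fewer in 12, with a median ratio of 1.41 (lower and upper quartiles 1.14 and 1.83). The OPA1 peak was also longer, by a median of 92 bp, so its tags were counted over more bases. The exact Poisson 95% intervals of the tags were apart in 8 pairs, all with more tags in OPA1. Summits lay close together, with a median shift of 22 bp and 132 pairs within 50 bp. The DMSO peak lay inside the OPA1 peak in 105 pairs and the reverse held in 4. Fold enrichment was higher in OPA1 in 85 of 170 pairs, so that no surplus was seen on that scale.

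The pair with the largest ratio lay in CAPG, which encodes a gelsolin-family protein capping actin filaments in macrophages, with 9 tags in DMSO (exact Poisson interval 4.12 to 17.1) and 32 tags in OPA1 (21.9 to 45.2), 3.56 times as many. A pair in XRCC1, which encodes a scaffold of DNA single-strand break repair, had 12 and 35 tags. ADARB1, which encodes an adenosine-to-inosine RNA editing enzyme, had 14 and 35 tags, and CFDP1 had 12 and 31. Pairs outside genes behaved alike: the pair nearest to OGFRL1, 38444 bp away, had 11 and 33 tags, and the pair nearest to UBASH3B, 146460 bp away, had 15 and 39. The remaining pairs with separate intervals were near BMP8B (75 and 146 tags) and POLR3GL (22 and 53 tags). In both the OPA1 peak was much longer, 1562 against 780 bp near BMP8B and 770 against 366 bp near POLR3GL. Tag density near BMP8B was 9.62 per 100 bp in DMSO and 9.35 in OPA1. Beside POLR3GL the DMSO list had a further peak, and all peaks of that gene together held 50 tags in DMSO and 53 in OPA1. DAG1, which encodes the matrix receptor dystroglycan, had 8 and 21 tags, 2.63 times as many, and its Poisson intervals overlapped.

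Pairs with fewer tags in OPA1 were few and their intervals overlapped. TNR, which encodes an extracellular matrix tenascin, had 14 tags in DMSO and 8 in OPA1. TK2, which encodes the mitochondrial thymidine kinase, had 17 and 11 tags. PDGFB, which encodes a platelet-derived growth factor chain, had 18 and 13 tags, and the pair 17864 bp from CEP19 had 11 and 8. At PGK1 the 100 tags of DMSO had an interval of 81.4 to 122 and the 73 tags of OPA1 one of 57.2 to 91.8. PGK1 and TNR therefore stood against the general direction with overlapping intervals. Overlap does not by itself show that a difference is within counting error, and the differences were not tested.

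**Figure D2:**
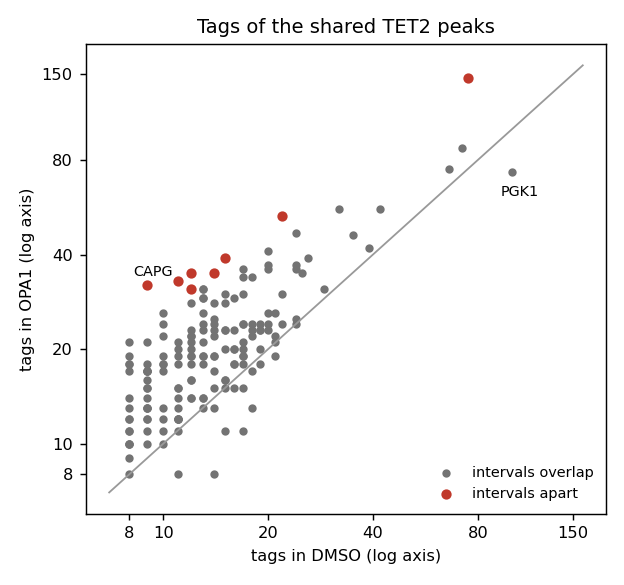
TET2 tags in OPA1 against tags in DMSO on log axes for the 170 overlapping pairs, the line marking equal tags and red points the 8 pairs with separate Poisson intervals. Points lie above the line in 151 pairs, CAPG (9 and 32 tags) far above it and PGK1 (100 and 73 tags) below it.

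Peaks in one list were mostly not displaced versions of peaks in the other. Of 1513 peaks found only in OPA1, 5 lay within 1 kb of a DMSO peak and 162 (10.7%) within 100 kb, and the median gap was 871674 bp. Of 712 peaks found only in DMSO, 5 lay within 1 kb of an OPA1 peak and 130 (18.3%) within 100 kb, with a median gap of 477486 bp. The longer OPA1 list makes a near OPA1 peak the more likely outcome, so these shares are not comparable as they stand. In the rare close cases the calls were neighbours: in DRC10 a DMSO peak at chr12:113208246-113208422 (10 tags) was followed by an OPA1 peak at chr12:113208578-113208843 (15 tags). Beside POLR3GL, which encodes an RNA polymerase III subunit, the DMSO list had peaks at chr1:145979356-145979721 (22 tags) and chr1:145980096-145980471 (28 tags), and the OPA1 list 1 peak at chr1:145979290-145980059 (53 tags).

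Of the OPA1-only peaks in or near genes, the one with the most tags was at CITED4, which encodes a transcriptional coactivator binding CBP and p300. Its peak at chr1:40860289-40861892 held 202 tags (interval 175 to 232) at a fold enrichment of 4.69. ST3GAL3, which encodes a sialyltransferase, held the longest peak of the OPA1 list, 1828 bp with 124 tags at chr1:43797828-43799655. Genes of immune cells were among the next: CD1B and CD1A, which encode presenters of lipid antigens to T cells, had 37 and 26 tags, and IL6R, which encodes the interleukin-6 receptor alpha chain, had 35. SPEF2, a sperm flagellum gene, had 38 tags, NUDT7, which encodes a peroxisomal coenzyme A hydrolase, 34, CLPTM1L 34 and RPL7L1 27. An OPA1-only peak in HIVEP3, which encodes a large zinc-finger transcription factor, had 43 tags. These peaks lay 1000 bp or less from a gene end at CITED4, CD1B, NUDT7, RPL7L1 and CD1A.

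The DMSO-only peaks were smaller. The biggest, in HIVEP3 at chr1:42015957-42016977, held 62 tags and was the longest of the DMSO list (1021 bp). HIVEP3 also held a DMSO-only peak of 51 tags. The next genes were ANKH, which encodes a membrane protein needed for pyrophosphate export, with 36 tags, and SLC2A1, which encodes the glucose transporter GLUT1, with 32. After these came POLR3GL with 28 tags, FCRL4, which encodes an Fc receptor-like protein of B cells, with 21, AHI1 and DNAH8, both genes of cilia or flagella, with 18 each, and INPP5D with 17. INPP5D encodes the phosphatase SHIP1, which restrains phosphoinositide 3-kinase signalling in blood cells. HIVEP3, POLR3GL, AHI1 and INPP5D also had OPA1 peaks, so a DMSO-only peak does not make a gene marked in DMSO only. At gene ends the most tags were beside CFAP58 and GABPB2 (15 each), DPM3 (14), RBBP5 and OBI1 (12 each). RBBP5 encodes a core subunit of histone H3 lysine methyltransferase complexes.

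Of the peaks called in both treatments, the biggest in OPA1 lay 11539 bp from BMP8B (75 tags in DMSO and 146 in OPA1). Among those in a gene or within 5000 bp of it, HIVEP3 had 87 tags in its biggest OPA1 peak, BMP8A, which encodes a bone morphogenetic protein, 42 tags in DMSO and 56 in OPA1, and PPARD, which encodes a lipid-sensing nuclear receptor, 39 and 42. SIGLEC9, which encodes an inhibitory sialic acid receptor of myeloid cells, had 24 and 37 tags. In OPA1, DOCK9, which encodes an activator of the GTPase CDC42, had 47 tags and SLC38A1, which encodes a glutamine transporter, had 41. Near gene ends, DAZAP2 had 24 tags and CCDC149 19. A peak of 21 tags lay inside FAM117A and 663 bp outside KAT7, which encodes a histone acetyltransferase.

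Counted by gene, the surplus in OPA1 was about as large as counted by peak. A gene is called marked where it holds a peak, or has one no more than 5000 bp away. Of 19974 protein-coding genes, 495 were marked in DMSO (2.48%) and 931 in OPA1 (4.66%). Both treatments marked 153 genes (0.766%), which is 30.9% of the DMSO genes and 16.4% of the OPA1 genes, while 342 were marked only in DMSO and 778 only in OPA1. Overlapping peaks accounted for 101 of the 153 genes, and the other 52 held separate peaks. Those 52 included long genes such as DLG2 and PCDH15, with 8 tags each in DMSO and 9 and 10 tags in OPA1, but also RARA, which encodes the retinoic acid receptor alpha, with 11 tags in 1 DMSO peak and 27 tags over 2 OPA1 peaks. These 3 examples were picked with the values known. The share of peaks tied to a gene was much the same, 54.4% in DMSO and 56.1% in OPA1.

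Marked genes were long in both treatments. The median gene length was 24170.5 bp over all protein-coding genes, 105917 bp over those marked in DMSO and 99579 bp over those marked in OPA1. Genes were cut into 5 equal groups by length. In the shortest group 0.475% were marked in DMSO and 0.576% in OPA1, and in the longest group, from 83651 bp up, 6.83% and 12.6%. OPA1 marked more genes than DMSO in each group, by 1.21 times in the shortest and 1.85 to 2.31 times in the others.

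Genes with 2 or more peaks numbered 22 in DMSO (0.11%) and 78 in OPA1 (0.391%), and genes with 3 or more numbered 1 and 11. HIVEP3 had 4 peaks in each treatment: 66, 51, 72 and 62 tags in DMSO and 75, 41, 43 and 87 in OPA1, with 2 of the 4 overlapping. In OPA1, ST3GAL3 held 3 peaks (49, 124 and 19 tags), CNIH3, which encodes an AMPA receptor auxiliary subunit, 3 (18, 33 and 15) and ARMC2, a sperm flagellum gene, 3 (20, 18 and 23). SLC25A37, which encodes mitoferrin, the mitochondrial iron importer of developing red cells, a gene of 46508 bp, had 2 peaks in its body (18 and 14 tags) and 1 beyond its end (16 tags). None of these 4 genes had a DMSO peak. PHACTR3, which encodes an actin-binding regulator of phosphatase 1, had 3 OPA1 peaks (14, 15 and 18 tags) and 1 DMSO peak (10 tags) overlapping the last. The DMSO genes with 2 peaks included ZNF445, a zinc-finger gene acting in imprinting, with 15 and 8 tags and no OPA1 peak, and DNAH14, with 10 tags in each and no OPA1 peak. ARHGAP15, DRC10 and POLR3GL had 2 DMSO peaks and at least 1 in OPA1.

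Genes of 16 lists, 557 genes in all, were marked more often than the genome's genes in either treatment, 38 (6.82%) in DMSO and 71 (12.7%) in OPA1, with 17 in both. Their median length was 49889 bp, above that of all genes, and their OPA1 over DMSO relation was near that of all genes. In the length group that holds this median, 35350 to 83641 bp, 2.78% and 5.26% of all genes were marked, and in the longest group 6.83% and 12.6%. The lists' medians ran from 14104 to 813982 bp, and the lists mix short and long genes, so what length adds to a list's count was not tested.

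Partners and regulators of TET2 were marked 1 time of 26 (3.85%) in DMSO and 2 times (7.69%) in OPA1, too few genes to set apart from the 2.48% and 4.66% of all genes. EBF1, which encodes a B-cell transcription factor known to bind TET2, held an OPA1 peak of 12 tags, CXXC5 one of 12 tags, and CUL4A, which encodes a ubiquitin ligase scaffold, a DMSO peak of 10 tags. Opioid receptors and peptides were marked 0 times of 10 in DMSO and 1 time (10%) in OPA1, at OPRM1, again too few to set apart. OPRM1 encodes the mu opioid receptor and held a peak of 20 tags (12.2 to 30.9) at chr6:154169425-154169805. Genes of cAMP signalling were marked 3 times of 41 (7.32%) in DMSO and 5 times (12.2%) in OPA1, with none in both. Of all genes 0.766% were marked in both, so a list this short need not hold any. Adenylyl cyclase genes were on both sides, ADCY2 with 20 tags and ADCY7 with 11 in OPA1, and ADCY8 with 10 in DMSO. GNAS, which encodes the stimulatory G protein alpha subunit, had 10 tags in DMSO.

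Genes of the TGF-beta and BMP pathway were marked 3 times of 38 (7.89%) in DMSO and 8 times (21.1%) in OPA1, against 2.48% and 4.66% of all genes, with only BMP8A in both. Their median length was 77215.5 bp. In the length group of that median 2.78% and 5.26% of all genes were marked, and in the longest group 6.83% and 12.6%. What length adds to this list's counts was not tested. Receptors were marked in OPA1: TGFBR2 with 16 tags, TGFBR3 with 19 and BMPR1B with 9. Of the SMAD genes, SMAD7, which encodes the inhibitory SMAD, had 18 tags and SMAD3 10 in OPA1, whereas SMAD2 had 8 in DMSO. Among the ligands and their binding proteins, TGFB1 had 11 tags in DMSO only, and BMP6 and LTBP1 had 8 tags each in OPA1 only.

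Genes of the RAS and MAPK pathway were marked 3 times of 40 (7.5%) in DMSO and 6 times (15%) in OPA1, and no gene was marked in both. Of all genes, 2.48% were marked in DMSO, 4.66% in OPA1 and 0.766% in both. A list this short need not hold a gene marked in both. In OPA1 the adaptor gene GRB2 held 2 peaks (12 and 10 tags) and the kinase gene MAP2K1 2 (14 and 19 tags). The negative regulators DUSP10, RASA2 and SPRED2 had 27, 20 and 10 tags in OPA1. In DMSO the marked genes were NF1 with 8 tags, MAPK9 with 9 and MAP3K5 with 10. Wnt and Notch genes were marked 2 and 4 times of 38 (5.26% and 10.5%). NOTCH1 had 10 tags in DMSO and 13 in OPA1, GSK3B 8 and 10 in separate peaks, and TCF7L2, a Wnt effector, 22 in OPA1 only. MAML3, a Notch coactivator gene, held OPA1 peaks of 10 and 12 tags.

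Receptors of leukocytes were marked 2 times of 44 in DMSO (4.55%) and 5 times (11.4%) in OPA1, against 2.48% and 4.66% of all genes. Their median gene length was 15170 bp, and in that length group 0.901% and 2.08% of all genes were marked. Besides SIGLEC9, the OPA1 genes were TREM1 (14 tags), CD300A (15), FCGR2A (8) and SIGLEC7, whose peak of 11 tags lay between it and SIGLEC9 and was counted for both. TYROBP, which encodes the adaptor DAP12, had 9 tags in DMSO only, in a peak that also met the windows of HCST and NFKBID. Integrin and adhesion genes were marked 1 and 4 times of 32 (3.1% and 12.5%). ITGB5 had 21 tags, PTK2, which encodes focal adhesion kinase, 17 and FERMT3 11, all in OPA1 only. ITGB2, the leukocyte integrin beta chain gene, had separate peaks of 9 tags in DMSO and 10 in OPA1. NF-kB and cytokine genes were marked 1 time of 40 (2.5%) in each treatment, CHUK in DMSO and NLRP3 in OPA1 (13 tags). In the lysosome and autophagy list of 31 genes, only CTSB, which encodes cathepsin B, was marked in OPA1 (3.23%, 20 tags) and none in DMSO.

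Glycolysis and central metabolism formed the only list of the 16 with more genes marked in DMSO, 3 of 34 (8.82%) against 2 (5.88%). These are too few genes to set the treatments apart. Of all genes 2.48% and 4.66% were marked. SLC2A1 and HK1, with 32 and 12 tags, were marked in DMSO only, HK2, with 12 tags, in OPA1 only, and PGK1 in both. In the lipid list, 3 and 4 of 32 genes (9.4% and 12.5%) were marked. PPARD, LPIN1 (13 and 14 tags) and ACOXL (18 and 34) carried overlapping peaks, and CD36 was added in OPA1. Chromatin regulators were marked 2 and 5 times of 51 (3.92% and 9.80%). They included KDM4C (18 tags), HDAC4 (11) and ARID1B (11) in OPA1 only, ASXL3 (10) in DMSO only and HDAC9 in both (8 and 12, in separate peaks). The cohesin, splicing and RNA processing list had 2 and 3 of 26 (7.69% and 11.5%). ADARB1 and CELF2 (12 and 28 tags) were marked in both and RBFOX1 (8 tags) in OPA1.

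Neuronal adhesion and channel genes had the longest members of any list, with a median of 813982 bp. They were marked 8 times of 40 in DMSO (20%) and 9 times in OPA1 (22.5%), with 2 in both. Of all genes 2.48% and 4.66% were marked, and of the longest length group, from 83651 bp up, 6.83% and 12.6%. The list's median lies far above that lower bound, and what length adds was not tested. Their peaks were small, 8 to 15 tags in DMSO and 8 to 12 tags in OPA1. The counts of this list were thus close in the treatments.

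**Figure D3:**
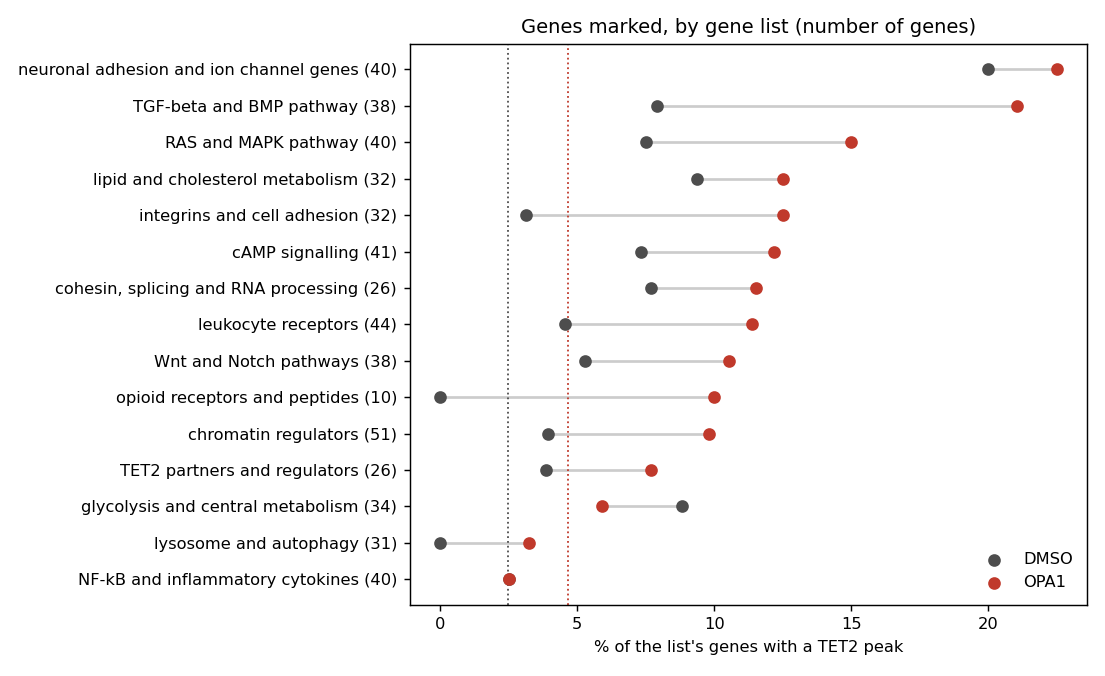
Percent of the protein-coding genes of each list with a TET2 peak in the body or within 5000 bp, in DMSO and in OPA1, with dotted lines at the shares of all protein-coding genes (2.48% and 4.66%) and the number of genes in parentheses. Of the 15 lists drawn, the neuronal list is highest in OPA1 at 22.5%, and glycolysis is the one list higher in DMSO, by 3 against 2 of 34 genes.

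The intervals of peak positions relative to genes mostly overlapped between treatments. Within 1000 bp of a protein-coding gene end lay 4.08% of DMSO peaks (95% Wilson interval 2.96 to 5.60) and 4.34% of OPA1 peaks (3.46 to 5.42). Inside a protein-coding gene lay 46.1% and 48.9%, and over 100 kb outside any such gene 21.2% and 17.8%. At a false discovery rate of at most 5% the order near gene ends turned, to 5.92% in DMSO and 4.29% in OPA1. For peaks outside genes the median distance was 53994 bp in DMSO (44743 to 69154) and 47471 bp in OPA1 (41199 to 55684). Annotated start sites, known for 819 DMSO and 1546 OPA1 peaks off chromosome 8, lay within 1 kb of 28 (3.42%) and 44 (2.85%) peaks. In both treatments most of these were upstream of the start, 18 of 28 and 31 of 44. Of 18177 long noncoding RNA genes, 140 held a peak in their body in DMSO and 257 in OPA1. Of 19974 protein-coding genes, 393 and 767 did. Of 1911 microRNA genes 0 did in both, and gene length was not taken into account. The peak farthest from a gene was at chr9:45498477-45498612 in DMSO (8 tags, 2543036 bp from LOC112268044) and at chr22:10751663-10752017 in OPA1 (21 tags, 4776352 bp from OR11H1). Peaks over 500 kb from a gene were rarer among shared peaks, 2 of 170 (1.18%, interval 0.323 to 4.19), than among those found only in DMSO (6.60%) or only in OPA1 (5.29%, 4.27 to 6.53).

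The surplus in OPA1 was spread over the genome. All 23 chromosomes had more OPA1 than DMSO peaks, from 1.35 times on chromosome 10 (52 and 70) to 3.25 times on X (4 and 13). Chromosome 17 (17 and 51) stood at 3.0. OPA1 peaks made up 65.6% of both lists, and the exact binomial interval of no chromosome excluded that share. Density was counted per 10 Mb up to the last annotated gene end and averaged 2.91 in DMSO and 5.55 in OPA1. It was highest on chromosome 8, with 4.34 and 9.44, and lowest on X, with 0.256 and 0.833. Chromosome 20 was second in OPA1 with 8.55. The number of copies of each chromosome in these cells was not analysed here.

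**Figure D4:**
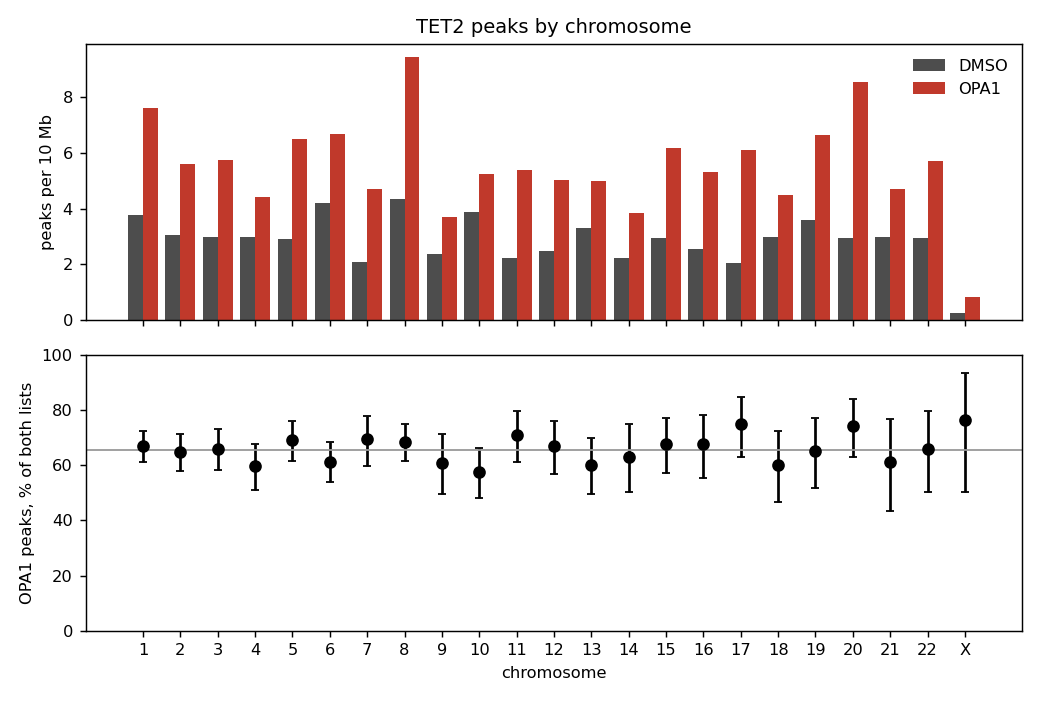
TET2 peaks per 10 Mb of each chromosome in DMSO and OPA1 (bars), and the OPA1 share of both lists in percent with its exact binomial 95% interval (points). Every interval includes the share over all chromosomes, 65.6%, drawn as a line.

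OPA1 peaks more often had a neighbour within 10 kb, 100 kb or 1 Mb. Within 1 kb they did not, with 0.907% of DMSO peaks and 0.832% of OPA1 peaks. A neighbouring peak of the same list lay within 100 kb for 8.05% of DMSO peaks (6.43 to 10.0) and 19.4% of OPA1 peaks (17.6 to 21.4). A longer list brings peaks closer, and the 882 highest-scoring OPA1 peaks, as many as in DMSO, gave 11.9% (9.93 to 14.2). The Wilson interval of that value still overlapped that of DMSO by a narrow margin. The median distance to the next peak was 955468 bp in DMSO, 422433 bp in OPA1 and 777476 bp in OPA1 at equal list size. Peaks chained within 100 kb formed 34 pairs and 1 triple in DMSO, and 133 pairs, 19 triples and 1 group of 4 in OPA1.

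The 5 leading groups of each list were as follows. In DMSO the triple was in HIVEP3 (66, 51 and 72 tags), followed by pairs at PEBP4 (32 and 25), beside POLR3GL (22 and 28), near H3Y2 (21 and 18) and between IFNGR1, which encodes the interferon-gamma receptor, and OLIG3 (14 and 15). In OPA1 the group of 4 was again in HIVEP3. The triples with the most tags were at CITED4 and CTPS1 (202, 45 and 46), in ST3GAL3 (49, 124 and 19), at CD1A and CD1B (21, 26 and 37) and at ATP8B2 and IL6R (17, 21 and 35). All 3 peaks of the ST3GAL3 group lay in the gene. Of the CITED4 group 1 peak lay at the gene and the others 42997 bp from CITED4 and 39696 bp from CTPS1. The peaks nearest to IL6R were 4714 and 1746 bp outside it. All 12 peaks of these 4 triples were found only in OPA1.

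**Figure D5:**
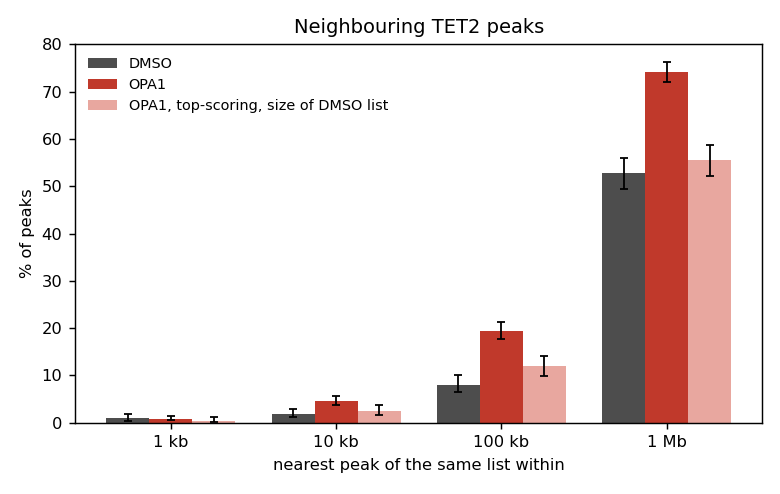
Percent of TET2 peaks with another peak of the same list within 1 kb, 10 kb, 100 kb or 1 Mb (bars), for DMSO, OPA1 and the highest-scoring OPA1 peaks at equal list size, with 95% Wilson intervals as error bars. At 100 kb the values are 8.05%, 19.4% and 11.9%.

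Several of the biggest peaks came from one stretch of chromosome 1, 39 to 45 Mb, which holds BMP8A, CITED4, HIVEP3, SLC2A1 and ST3GAL3. It held 8 DMSO and 13 OPA1 peaks, 4 of them shared in each list, with median tags of 56.5 and 49 against 9 and 12 elsewhere. Fold enrichment there was low, with medians of 6.34 and 5.33 against 12.01 and 11.2 elsewhere, in both treatments. The stretch carried 4.22% of the tags of all DMSO peaks and 4.01% in OPA1. Without it, an alternative added after seeing the data, shares and medians stayed within their intervals, and the ratio of list sizes and the other counts within 1.5 times their values.

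Peaks of EGR1, an immediate early zinc-finger transcription factor, were rarely at TET2 peaks, except in the OPA1 lists at the places shared by the treatments. In OPA1, 17 of 170 shared TET2 peaks (10%, Wilson interval 6.34 to 15.4) overlapped an EGR1 peak of the OPA1 list, against 7 of 1513 OPA1-only peaks (0.463%, 0.224 to 0.952). The intervals stayed apart among peaks of 15 tags or more, 16 of 129 (12.4%) against 2 of 404 (0.495%). Among peaks of 8 to 14 tags they overlapped, 1 of 41 (2.44%, 0.432 to 12.6) against 5 of 1109 (0.451%, 0.193 to 1.05). In DMSO the shares were 3 of 170 (1.76%, 0.602 to 5.06) and 5 of 712 (0.702%, 0.300 to 1.63), with overlapping intervals. The 2 ChIP libraries share 1 input within each treatment, and its part in these overlaps was not tested.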

How the data were processed

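TET2 and EGR1 ChIP-seq and input libraries of THP-1 cells were each made once per treatment, so every group has 1 library and no test was run. Reads were aligned with Bowtie2 2.2.6 to GRCh38 (hg38), and HOMER was also used in a role not given in the sources used here, per the submitters' processing notes. Per the file headers, the authors called the peaks of each library with MACS 1.4.2, taking the matching input as control. Settings were 50 bp tags with at most 1 per position, band width 200 bp, model fold 10 to 30 and p-value cutoff 1.00e-05. The deposited tag counts per peak are raw counts. The deposited score is a multiple of the negative log10 of the p-value. The deposited fold enrichment is a ratio to the local background, and the deposited false discovery rate is a percent.

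Peaks on other sequences (9 in DMSO and 4 in OPA1) were left out. Gene bodies came from the RefSeq table and promoter sequences from the RefSeq promoter table (both GRCh38.p14), which lists none on chromosome 8. No genome sequence was used, so exons, introns, UTRs and base composition at the peaks were not analysed here. Overlap meant at least 1 bp. Intervals are 95%: Wilson for shares, exact Poisson for tags, exact binomial for chromosome shares and order-statistic for medians. Tags are not independent molecules, and peaks are not replicates. Calculations used Python 3.11.15 with pandas 2.3.3, scipy 1.17.1 and statsmodels 0.14.6 and were tested on simulated data.

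Named genes were the 8 with the most tags in OPA1-only, DMSO-only and shared peaks, and the 5 with the most tags within 1000 bp of a gene end. Added to these were the 6 genes with the most peaks per list, the 5 highest and 5 lowest tag ratios, the 5 largest groups, all list members with a peak, and the longest and farthest peaks. The peaks and gene lists were chosen with earlier results of these data known. One of the 16 gene lists and some list members are counted in the totals but not reported here by name. Alternatives covered the false discovery rate, tag minimum, equal list size, gene windows, distances, overlap and sequences included, and the effect of each is given in the closing section.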

Additional observations from a re-analysis of the deposited data

How the results depend on the processing

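Of 83 values recomputed under 13 alternatives, 45 stayed within the interval or within 1.5 times, 36 moved and 2 reversed. At a false discovery rate of at most 5% (169 DMSO and 1352 OPA1 peaks) the ratio of list sizes was 8, and the order of the median tags reversed, 14 in DMSO and 13 in OPA1. The median length was then 241 and 261 bp, 106 genes were marked in DMSO, the share near a gene end (1000 bp) was 5.92% and 4.29%, the distance to a gene was 44389.5 and 46127 bp, both in the opposite order to the full lists, neighbours within 100 kb were at 1.18% and 16.9%, and 47.9% of DMSO peaks were overlapped. A given rate corresponds to different scores in the 2 lists. At 15 tags or more the ratio was 4.76, median tags 17.5 and 19, lengths 287.5 and 348 bp, marked genes 69 and 306, the distance 41511 and 41498 bp, the share near a gene end 5.36% and 4.69% (DMSO now the higher), OPA1 neighbours 16.9% and overlapped DMSO peaks 58.9%. At equal list size the ratio is 1 by construction, and OPA1 had median tags of 14, a length of 285 bp, 525 marked genes, more peaks than DMSO on 10 chromosomes, neighbours at 11.9% and 16.4% of DMSO peaks overlapped. A gene window of 50000 bp marked 1154 and 2136 genes. The share near a gene end was 16.1% and 14.1% within 5000 bp, where DMSO was the higher, and 9.86% and 10.6% with the ends of all genes. Neighbours lay within 10000 bp for 1.81% and 4.63% and within 1000000 bp for 52.7% and 74.2%. Leaving out the chromosome 1 stretch or chromosome 8, both added after seeing the data, moved none of the 15 results. No paired analysis was possible because each group has 1 library, and for the same reason no replicate could be left out. At 8 tags the counting interval of a peak runs from 3.45 to 15.8 tags, which limits what small peaks can show.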
